A study of Mus musculus with 12 samples.

Results

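The genes described here are 33 markers of the oligodendrocyte lineage, the cells that wrap axons of the central nervous system in myelin, measured by RNAseq in the brain of R6/2 Huntington's disease (HD) mice and wild-type (WT) littermates. They were taken as a list of gene symbols, and all 33 were present, with 1 row each, among the 23238 symbols of the count tables. All 33 passed the filter on low counts in each of the 8 tests described below. Of these genes, 3 mark precursors (Pdgfra, Cspg4 and Lhfpl3) and 2 mark committed precursors that are about to mature (Gpr17 and Bcas1). The list holds 3 transcription factors of the whole lineage (Sox10, Olig1 and Olig2) and 2 of maturing cells (Myrf and St18). Proteins of myelin and of the oligodendrocyte membrane form the largest group with 14 genes (Mbp, Mog, Mag, Mobp, Cnp, Cldn11, Mal, Opalin, Ermn, Plekhb1, Tspan2, Gjc3, Nfasc and Gpr37). The other genes are 5 enzymes of lipids and acetate (Ugt8a, Gal3st1, Fa2h, Aspa and Enpp2) and 4 genes of metabolism, iron transport and stress (Trf, Car2, Qdpr and Cryab).

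Oligodendrocytes arise from dividing precursors, which persist in the adult brain, pass through a short committed stage and then switch on the genes of the myelin sheath. Sox10, Olig1 and Olig2 act from the precursor onward, whereas Myrf is needed for the myelin genes themselves. The striatum, the region that loses the most neurons in HD, is crossed by bundles of myelinated axons, and the cortex lies on a layer of white matter.

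R6/2 mice carry, as a transgene, the first exon of human HTT with an expanded CAG repeat. Libraries of striatum (STR) and cortex (CTX) came from HD mice at 8 weeks, before symptoms (preHD), and at 13 weeks, after symptom onset (postHD), with 2 libraries in each of these 4 groups. The WT littermates were studied at the same ages (preWT at 8 weeks and postWT at 13 weeks), with only 1 library for each region and age. Nothing in the labels says whether replicates are separate mice, or whether both regions of a number come from 1 mouse, so the p-values measure the spread between these libraries. Where a pair of HD values is given, replicate 1 comes first and replicate 2 second.

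The libraries held between 8814386 and 12091201 counts. Levels are given in CPM, counts scaled to the effective size of each library. Reads came from the 3′ ends of transcripts, so a level does not depend on gene length, and the counts carry no molecular identifiers, so an interval from them covers counting error only. The lowest count of a listed gene was 11, for Gal3st1 in preWT striatum, where the exact binomial 95% interval ran from 0.552 to 1.98 CPM. The ribosomal precursor Rn45s took between 10.5% and 15.2% of counts in HD libraries and between 4.32% and 5.62% in WT libraries. The counts of Xist, a transcript of female cells, separated the libraries by sex in a way that coincided with other labels. Xist had between 2 and 73 counts in every HD library numbered 1 and between 1270 and 1660 in every HD library numbered 2. It had 5 and 18 counts in the preWT libraries and 828 and 1449 in the postWT libraries. In WT mice, age and sex therefore cannot be told apart. In bulk tissue, fewer cells of a type and less RNA per cell cannot be told apart either.

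One library stood apart from all others in these genes. The summed level of the 33 genes was 20236 CPM in replicate 2 of preHD striatum, against 3674.5 CPM in replicate 1 of the same group. In the other 10 libraries the sum lay between 2939.1 CPM and 9295.6 CPM, and the second highest was replicate 2 of postHD striatum. Of the 33 genes, 31 had their highest level of all libraries in replicate 2 of preHD striatum. The share of all genes with their highest level there is not given. The tests of the 33 genes are therefore given with and without this library. It was singled out by the levels of these same genes. Leaving it out thus moves their striatal change with onset upward by that choice alone, and the p-values of such fits do not allow for it.

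**Figure D1:**
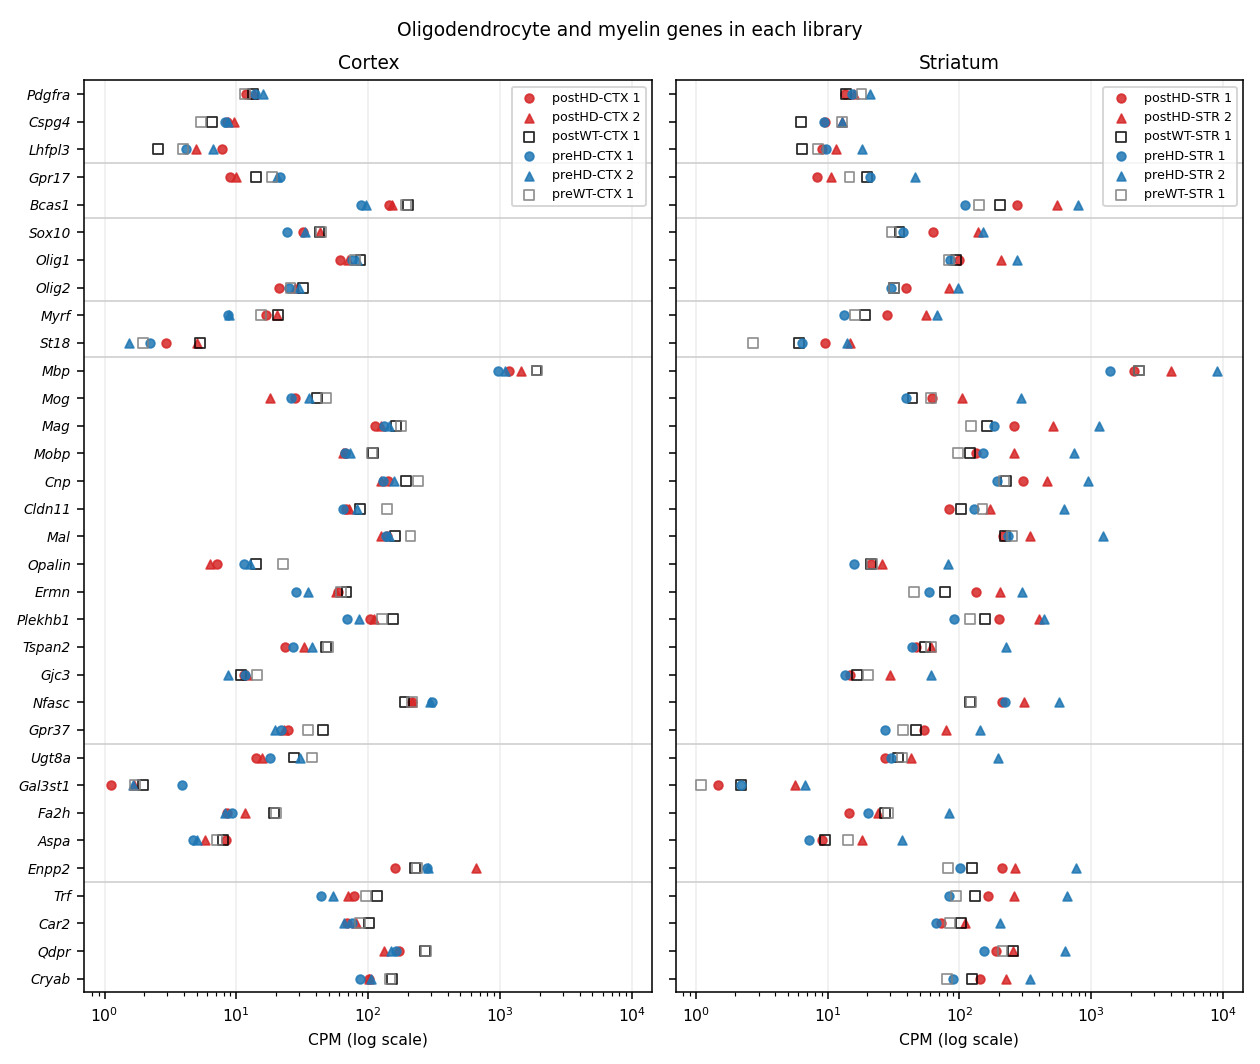
Level of each of the 33 genes (rows, grouped by role) in each library, in CPM on a log axis, with cortex on the left and striatum on the right. Circles are HD replicate 1, triangles are HD replicate 2 and open squares are WT libraries. Blue triangles of preHD-STR 2 lie farthest to the right in the striatal panel, with Mbp at 9038.5 CPM, while the precursor genes in the top rows lie close together.

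The excess in this library differed by role. Replicate 2 exceeded replicate 1 of preHD striatum by a median of 4.83 times over the 33 genes, with a range from 1.35 to 7.85 times. The 3 precursor genes had the smallest ratios, between 1.35 and 1.87. The 14 myelin and membrane proteins lay between 2.56 and 7.43, and Trf, the iron carrier transferrin, had the highest ratio of all at 7.85. Of the 33 genes, 27 were more than 3 times higher in replicate 2, against 4.18% of the 10777 genes with a mean of at least 5 CPM. The replicates of postHD striatum differed in the same direction. There, replicate 2 was higher for 33 of 33 genes, with a median ratio of 1.59 and a range from 1.18 to 3.82, and 1 gene (Gal3st1) was more than 3 times higher, against 0.501% of genes. In cortex the replicates lay closer, with median ratios of 1.10 before and 1.09 after symptom onset. Of the 33, 0 before and 1 after (Enpp2) exceeded 3 times, against 0.241% and 0.334%.

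Genes of other cell types and of neighbouring regions moved in the same library. A list of 10 genes of striatal projection neurons summed to 2443 CPM in replicate 2 of preHD striatum, against 7636 CPM in replicate 1 and 7584 CPM in preWT striatum. A list of 5 thalamic genes summed to 576 CPM there, and to between 22.7 and 62.7 CPM in every other library. It held 234 CPM of Slc17a6 and 253 CPM of Prkcd, which lay at 4.77 and 4.19 CPM in replicate 1. A list of 7 genes of cortical projection neurons summed to 405 CPM, against 71.7 to 166 CPM in the other striatal libraries. Choroid plexus genes summed to 954 CPM in this library and to 3028 CPM in replicate 2 of postHD cortex, and to between 2.18 and 125 CPM elsewhere. Astrocyte, microglial and endothelial lists were less than 1.5 times apart between the replicates of preHD striatum, at 1770 and 1394 CPM, 390.3 and 348 CPM, and 188 and 133 CPM for replicates 2 and 1. The part of these tissues in the levels of the oligodendrocyte genes was not tested.

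**Figure D2:**
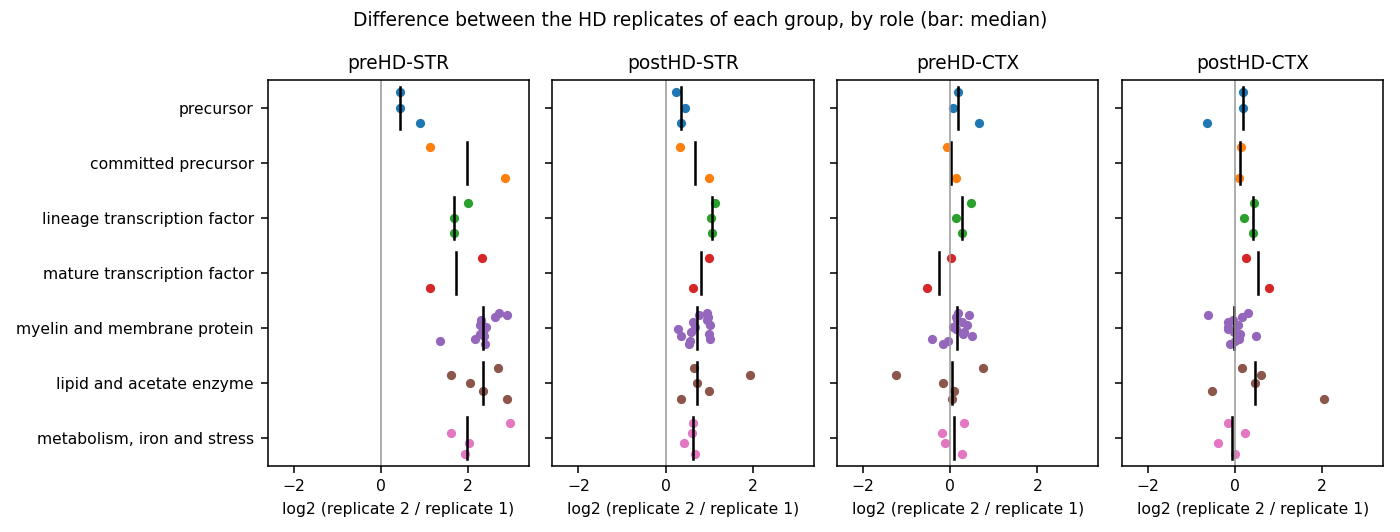
Log2 ratio of replicate 2 to replicate 1 for each of the 33 genes in the 4 HD groups, by role (points are genes, black bars are medians of a role). In preHD-STR the 3 precursor genes lie nearest 0, with ratios between 1.35 and 1.87, and the myelin and membrane proteins reach a ratio of 7.43. In both cortical groups most points lie around 0, and those farthest from it are Enpp2 in postHD-CTX (2.04) and Gal3st1 in preHD-CTX (-1.245).

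Several listed genes are known from other cells as well. For example, Nfasc is also made by neurons, Enpp2 by the choroid plexus, and Car2, Qdpr and Cryab by several cell types. These examples are not a complete list. The part of other cells in the levels of the remaining genes, among them Pdgfra, Cspg4 and Trf, was not tested. The same holds for the summed level of the precursor genes given further on.

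The precursor genes were low, and Pdgfra varied least. Pdgfra, the receptor for platelet-derived growth factor that marks precursors, was at 11.6 CPM in preWT cortex, 13.9 and 15.8 CPM in preHD cortex, 13.4 CPM in postWT cortex and 11.8 and 13.5 CPM in postHD cortex. In striatum, Pdgfra was at 18.1 CPM in preWT, 15.4 and 20.9 CPM in preHD, 13.8 CPM in postWT and 13.5 and 16.0 CPM in postHD. All 12 libraries thus lay between 11.6 and 20.9 CPM, and the HD groups overlapped in striatum. Cspg4, the NG2 proteoglycan on the precursor surface, was at 5.35 CPM in preWT cortex, 8.26 and 8.59 CPM in preHD, 6.51 CPM in postWT and 8.47 and 9.58 CPM in postHD. Striatal Cspg4 was at 12.8 CPM in preWT, 9.42 and 12.8 CPM in preHD, 6.30 CPM in postWT and 9.48 and 13.0 CPM in postHD. In cortex, all 4 HD libraries held more Cspg4 than both WT libraries. Lhfpl3, a membrane protein of precursors, was at 3.90 CPM in preWT cortex, 4.18 and 6.64 CPM in preHD, 2.54 CPM in postWT and 7.78 and 4.97 CPM in postHD. Its striatal level was 8.44 CPM in preWT, 9.77 and 18.2 CPM in preHD, 6.39 CPM in postWT and 9.11 and 11.7 CPM in postHD. Within every group each striatal library exceeded each cortical library.

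Gpr17, a receptor of committed precursors that is lost as cells mature, had the clearest pattern in time. In cortex it was at 18.7 CPM in preWT, 21.4 and 20.2 CPM in preHD, 14.1 CPM in postWT and 8.99 and 9.93 CPM in postHD. In striatum it was at 14.7 CPM in preWT, 21.1 and 45.9 CPM in preHD, 20.04 CPM in postWT and 8.37 and 10.6 CPM in postHD. All 4 postHD libraries lay below all 8 others, and below the WT library of their own region and age. The lowest of these values, in replicate 1 of postHD striatum, rested on 90 counts, with an exact binomial 95% interval from 6.73 to 10.3 CPM. Its counterpart in postWT striatum had 210 counts and an interval from 17.4 to 22.9 CPM. Gpr17 overlaps Lims2 on the opposite strand, and the counting rule is not given in the sources used here, so its reads may not be told apart from those of Lims2. The same holds, among others, for Ermn with Galnt5, Cnp with Dnajc7 and Cryab with Hspb2. Bcas1 overlaps Bcas1os1 and Bcas1os2 on the opposite strand, and Tspan2 overlaps Tspan2os and Tshb. On the same strand, Lhfpl3 overlaps 6030443J06Rik and Gm21846, Trf overlaps Gm20425 and Mobp overlaps Gm38642.

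Bcas1, a protein of committed and early myelinating cells, did not follow Gpr17. It was at 193 CPM in preWT cortex, 87.7 and 95.6 CPM in preHD, 199 CPM in postWT and 144 and 152 CPM in postHD. In striatum the levels were 139.7 CPM in preWT, 109.8 and 798 CPM in preHD, 204 CPM in postWT and 272 and 545 CPM in postHD. Every cortical HD library held less Bcas1 than both cortical WT libraries, and both postHD striatal libraries held more than both striatal WT libraries.

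The transcription factors of the lineage were above WT in postHD striatum, and in cortex they lay around or below it. Sox10 was at 43.7 CPM in preWT cortex, 24.0 and 33.4 CPM in preHD, 42.7 CPM in postWT and 32.1 and 43.2 CPM in postHD. In striatum Sox10 was at 30.5 CPM in preWT, 37.5 and 149.9 CPM in preHD, 35.1 CPM in postWT and 62.9 and 138 CPM in postHD. All 4 striatal HD libraries lay above both WT libraries, with replicate 1 of preHD the closest. Olig1 was at 79.9 CPM in preWT cortex, 74.8 and 81.9 CPM in preHD, 87.2 CPM in postWT and 60.6 and 70.0 CPM in postHD. The striatal levels of Olig1 were 83.3 CPM in preWT, 84.2 and 272 CPM in preHD, 93.6 CPM in postWT and 99.8 and 207 CPM in postHD. Both postHD cortical libraries were thus the lowest in their region. Olig2, which is needed to form precursors, was at 25.7 CPM in preWT cortex, 25.1 and 30.0 CPM in preHD, 31.9 CPM in postWT and 21.0 and 27.9 CPM in postHD. For striatum the values were 32.1 CPM in preWT, 30.0 and 97.1 CPM in preHD, 31.8 CPM in postWT and 39.2 and 82.7 CPM in postHD. The cortical groups overlapped for Olig2.

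Myrf, the factor that switches on myelin genes, was at 15.4 CPM in preWT cortex, 8.68 and 8.81 CPM in preHD, 20.7 CPM in postWT and 16.8 and 20.1 CPM in postHD. In striatum it was at 16.1 CPM in preWT, 13.4 and 67.4 CPM in preHD, 19.3 CPM in postWT and 28.2 and 56.2 CPM in postHD. Cortical Myrf was lower in both preHD libraries than in all other cortical libraries, and after symptom onset it lay just below postWT. St18, a zinc finger factor of mature cells, was at 1.95 CPM in preWT cortex, 2.20 and 1.52 CPM in preHD, 5.32 CPM in postWT and 2.94 and 5.06 CPM in postHD. Its striatal values were 2.71 CPM in preWT, 6.40 and 13.9 CPM in preHD, 6.11 CPM in postWT and 9.58 and 14.8 CPM in postHD. In each genotype and region, the later age held more St18 than replicate 1 of the earlier age.

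Mbp, the myelin basic protein, was the most abundant of the 33 genes. In cortex it was at 1913 CPM in preWT, 961 and 1080 CPM in preHD, 1886 CPM in postWT and 1166 and 1431 CPM in postHD. In striatum it was at 2281 CPM in preWT, 1385.5 and 9038.5 CPM in preHD, 2301 CPM in postWT and 2099 and 4040.1 CPM in postHD. The 4 cortical HD libraries did not overlap the 2 cortical WT libraries. In striatum the preHD replicates lay on opposite sides of WT, and the postHD replicates did too.

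For the regulatory sequence beside these genes, RefSeq promoter windows of GRCm38.p6 were matched by symbol, and 21 of the 33 genes had at least 1 window (28 windows in all). Sox10 and its relatives bind a short core, searched here as ACAAAG and ACAATG on both strands in the 250 bases before each start, so that CTTTGT and CATTGT mark the opposite strand. Of the 28 windows, 11 (39.3%) held a core, against 25.2% of 32851 windows of all genes. Overlapping windows were counted separately, and those of Mag share a core, as do those of Gal3st1. By gene, 9 of the 21 held a core in a window, and the like share of all genes is not given. The E-box CANNTG, the motif of factors such as Olig2, was in 57.1% and 66.2%. Below are, as examples, the windows of Opalin and Ermn, for which differences passed a test, and of Mobp, which held the most cores. Other genes with a difference that passed a test had windows without a core, among them Mal, Cldn11, Gjc3, Gpr37, Qdpr, Lhfpl3 and Aspa. The window of Cnp and a window of Tspan2 held 1 core each. Each reads 5′ to 3′ on the gene's strand, and capitals mark the cores. Opalin encodes a membrane protein of the myelin sheath's inner loops and lies at chr19:41077114-41077363 on the minus strand for this window. Ermn encodes ermin, a cytoskeletal protein of mature cells, with the window at chr2:58052865-58053114 on the minus strand. Mobp encodes a cytoplasmic protein of compact myelin, with the window at chr9:120149492-120149741 on the plus strand.
Opalin: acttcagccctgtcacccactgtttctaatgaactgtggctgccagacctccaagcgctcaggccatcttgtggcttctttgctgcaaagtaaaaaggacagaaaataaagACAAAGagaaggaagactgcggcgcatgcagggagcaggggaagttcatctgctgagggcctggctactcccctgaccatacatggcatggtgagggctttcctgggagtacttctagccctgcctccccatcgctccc
Ermn: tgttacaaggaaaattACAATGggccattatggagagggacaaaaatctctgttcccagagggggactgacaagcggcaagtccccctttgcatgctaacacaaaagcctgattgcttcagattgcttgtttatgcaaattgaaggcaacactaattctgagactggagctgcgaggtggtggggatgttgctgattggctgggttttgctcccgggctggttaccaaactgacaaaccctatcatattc
Mobp: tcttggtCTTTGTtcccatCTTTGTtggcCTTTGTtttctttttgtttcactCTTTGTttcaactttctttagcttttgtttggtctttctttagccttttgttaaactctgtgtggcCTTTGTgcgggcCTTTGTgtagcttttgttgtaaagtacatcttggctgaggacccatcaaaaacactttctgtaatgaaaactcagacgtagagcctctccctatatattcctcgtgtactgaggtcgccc
A match is a match of letters only, and binding was not measured.

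Opalin, whose window holds 1 core, was at 22.5 CPM in preWT cortex, 11.5 and 12.6 CPM in preHD, 14.03 CPM in postWT and 7.09 and 6.30 CPM in postHD. In striatum it was at 21.8 CPM in preWT, 15.8 and 81.9 CPM in preHD, 21.3 CPM in postWT and 21.3 and 25.9 CPM in postHD. Within each age, both cortical HD libraries lay below the WT library. Ermn, whose window also holds 1 core, was at 61.7 CPM in preWT cortex, 28.1 and 34.7 CPM in preHD, 68.4 CPM in postWT and 58.8 and 57.3 CPM in postHD. Striatal Ermn was at 45.0 CPM in preWT, 58.7 and 298 CPM in preHD, 77.7 CPM in postWT and 133 and 201 CPM in postHD. Cortical Ermn was higher in both postHD than in both preHD libraries, and both postHD striatal libraries exceeded both striatal WT libraries. Mobp, with 6 cores, was at 107 CPM in preWT cortex, 66.2 and 73.0 CPM in preHD, 109 CPM in postWT and 67.0 and 64.8 CPM in postHD. Its striatal values were 97.0 CPM in preWT, 150.1 and 737 CPM in preHD, 120.3 CPM in postWT and 134 and 259 CPM in postHD. All 4 HD libraries lay below WT in cortex and above WT in striatum.

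The other myelin and membrane proteins spanned wide ranges, set at the top by replicate 2 of preHD striatum. Mag, an adhesion protein of the sheath's inner surface, was at 177 CPM in preWT cortex, 131 and 145 CPM in preHD, 162 CPM in postWT and 112 and 126 CPM in postHD. In striatum Mag was at 122 CPM in preWT, 184 and 1135 CPM in preHD, 163 CPM in postWT and 261 and 512 CPM in postHD. Like Mobp, Mag was lower in all HD than in all WT libraries of cortex and higher in all HD than in all WT libraries of striatum. Mog, a surface protein of the outer sheath, was lower in all 4 HD than in both WT libraries of cortex, where it ran from 18.1 to 47.8 CPM. Plekhb1, Cnp, Cldn11, Mal and Tspan2 were also lower in all 4 HD than in both WT libraries of cortex. For genes whose HD and WT libraries of a region did not overlap, the share of all genes so separated is not given. Over all 12 libraries Plekhb1 ran from 69.2 to 435 CPM, Mal from 125 to 1237 CPM, Cldn11 from 63.8 to 619 CPM, Tspan2 from 23.4 to 226 CPM and the connexin gene Gjc3 from 8.59 to 60.5 CPM.

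Transferrin (Trf) and Cnp show the cortical side of genes named further on. Trf was at 95.7 CPM in preWT cortex, 43.8 and 54.3 CPM in preHD, 116 CPM in postWT and 78.1 and 69.8 CPM in postHD. Cnp was at 239.8 CPM in preWT cortex, 130.4 and 156 CPM in preHD, 192 CPM in postWT and 140.4 and 125 CPM in postHD. Both were lower in every HD than in every WT library of cortex, as were Car2 (carbonic anhydrase), Qdpr and Cryab. Car2 ran from 65.4 to 205 CPM over all libraries. Gal3st1, which makes sulfatide, ran from 1.11 to 6.75 CPM and was the lowest of the 33 genes, and Aspa ran from 4.70 to 37.0 CPM.

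The stage comparison asked how the genes changed between the ages before and after symptom onset in HD mice. Over both regions, in a fit of the 8 HD libraries, 1 of the 33 genes passed the threshold of an adjusted p of 0.05, against 6.45% of all 13944 genes tested. This was Gpr17, among 4.53% of genes that fell. It fell by 1.48 on the log2 scale (SE 0.26, edgeR adjusted p = 0.0131), to 0.359 of its level before onset. Within the libraries numbered 1, its log2 change was -1.33 in striatum and -1.25 in cortex, and within those numbered 2 it was -2.11 and -1.03. The call for Gpr17 held in 12 of 15 alternatives. It was lost without replicate 1 of postHD striatum, of postHD cortex or of preHD cortex, with a highest adjusted p of 0.0562. Of the other 32 genes, none passed with all 8 libraries. The median log2 change of the 33 genes was -0.24, against 0.00 over all genes.

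With replicate 2 of preHD striatum left out, 4 genes passed over both regions, against 10.6% of 14300 genes. Gpr17 fell by 1.14 on the log2 scale (SE 0.19, edgeR adjusted p = 0.00243), against 7.45% of genes that fell. The 3 others rose, against 3.17% of genes. Myrf rose by 1.32 (SE 0.26, adjusted p = 0.00661), Ermn by 1.14 (SE 0.19, adjusted p = 0.00234) and transferrin (Trf) by 0.89 (SE 0.20, adjusted p = 0.0211). The median of the 33 genes was then 0.25, with 26 of the 33 changes above 0, where 7 had been above 0 with all 8 libraries.

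In striatum the direction of most genes turned on this library. With all 8 libraries, no gene of the 33 passed the test in striatum by edgeR, against 0.16% of 14392 genes, and 1 had an unadjusted p under 0.05. DESeq2 called 1 of the 33, against 3.23% of all genes. The median log2 change was -0.58, with 28 of 33 changes below 0. When replicate 2 of preHD striatum was left out, 8 genes passed, against 7.02% of 15009 genes, and the median was 0.86, with 29 of 33 changes above 0. Of the 8, 7 rose and 1 fell, against 1.7% and 5.32% of all genes. Leaving out replicate 1 in its place gave 20 genes that fell, against 5.28% of all genes, none that rose and a median of -1.29. The sign of 29 of the 33 changes thus depended on which preHD striatal library was kept. Gpr17 was among the 4 with a change below 0 in both cases.

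The 7 genes that rose in striatum without that library belonged to several roles. Bcas1 rose by 1.90 on the log2 scale (SE 0.41, edgeR adjusted p = 0.0462) and Myrf by 1.65 (SE 0.38, adjusted p = 0.0183). Among the myelin and membrane proteins, 3 of 14 rose. Ermn rose by 1.51 (SE 0.25, adjusted p = 0.00163), the receptor Gpr37 by 1.28 (SE 0.27, adjusted p = 0.00846) and Cnp, an enzyme of non-compact myelin, by 0.997 (SE 0.23, adjusted p = 0.0198). Trf rose by 1.33 (SE 0.25, adjusted p = 0.00507) and the small heat shock protein gene Cryab by 1.06 (SE 0.25, adjusted p = 0.0188). Gpr17 fell by 1.15 (SE 0.30, adjusted p = 0.0350). None of the 3 precursor genes and none of the 5 lipid and acetate enzymes passed. In this fit the lone preHD striatal library, of low Xist, is assumed to vary like the other groups, and it is set against 1 postHD library of low and 1 of high Xist. Between the striatal libraries numbered 1, of like Xist, the median log2 change of the 33 genes was 0.32, with 23 above 0 and 10 below. The log2 ratio there was 1.31 for Bcas1, 1.18 for Ermn, 1.07 for Myrf, 0.99 for Gpr37, 0.98 for Trf, 0.69 for Cryab and 0.65 for Cnp, with no test. Between those numbered 2 the median was -1.02, and all 7 of these genes had a log2 ratio below 0.

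The values behind these calls separate replicate 1 of preHD striatum from postHD for each gene. Cnp was at 192 CPM in that library and 302 and 465 CPM in postHD striatum, with 217 and 224 CPM in preWT and postWT. Gpr37 was at 27.3 CPM there, 54.2 and 79.0 CPM in postHD, and 37.4 and 47.0 CPM in the WT libraries. Cryab was at 88.8 CPM there, 143 and 227 CPM in postHD, and 80.1 and 125 CPM in WT. For all 3, both postHD libraries lay above both WT libraries, and replicate 2 of preHD striatum, at 946, 143 and 342 CPM, lay above them all. Trf was at 84.0 CPM in replicate 1, 659 CPM in replicate 2, 166 and 257 CPM in postHD, and 94.3 and 131 CPM in WT. Over the 33 genes, both postHD libraries exceeded replicate 1 for 23 genes and fell below it for 1, against 36.3% and 39.2% of the 10777 genes of at least 5 CPM. Striatal neuron genes summed to 1468 and 1484 CPM in postHD striatum, against 7636 CPM in replicate 1 of preHD striatum. Whether this fall has a part in the higher CPM of oligodendrocyte genes was not tested.

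**Figure D3:**
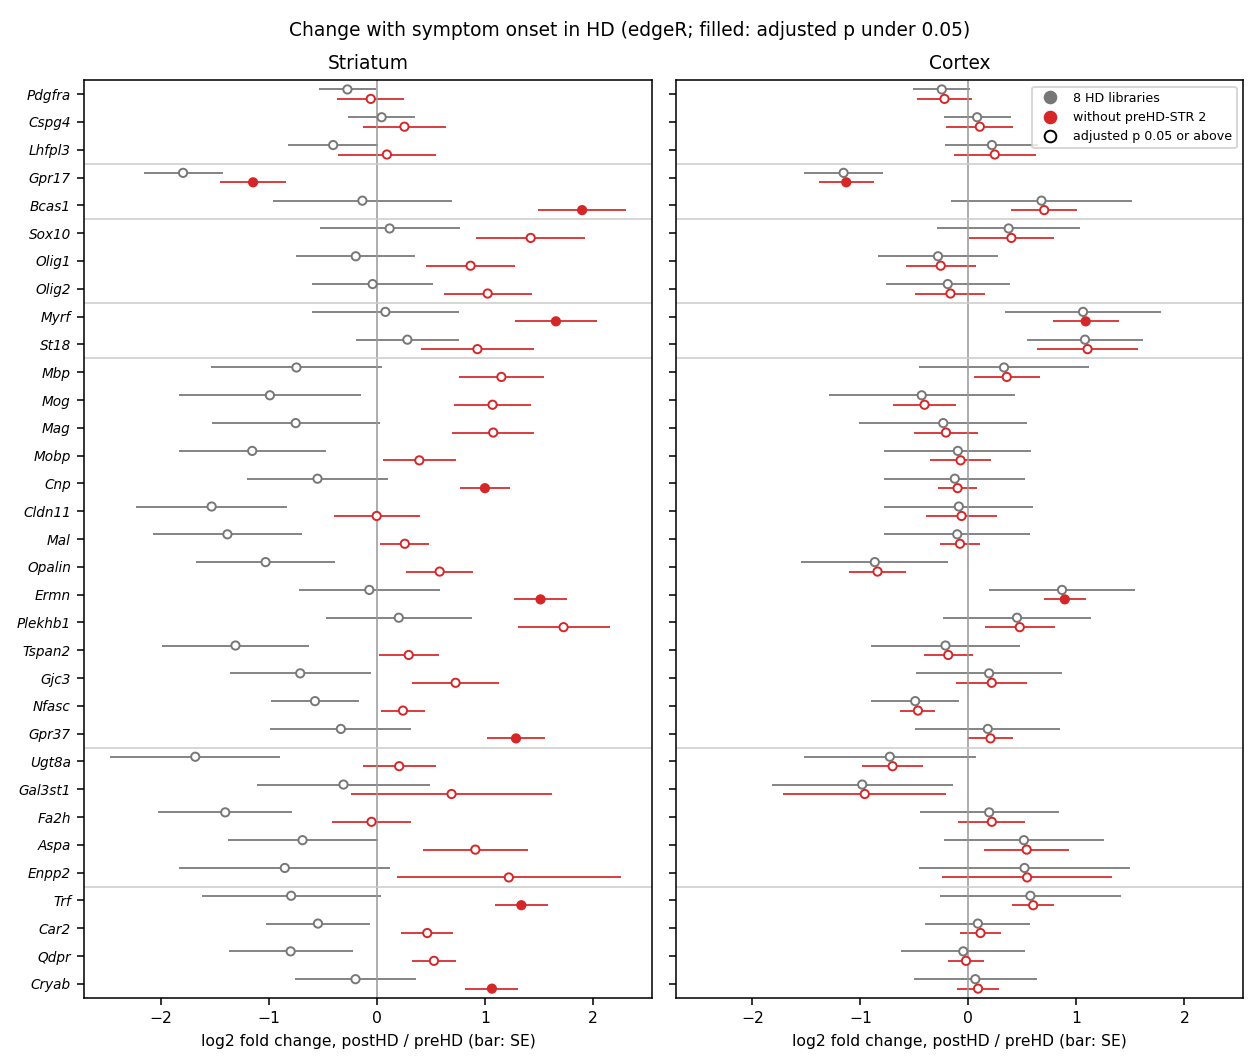
Log2 fold change from before to after symptom onset in HD striatum (left) and cortex (right) for each of the 33 genes, with the SE as a bar, from edgeR. Grey points come from all 8 HD libraries and red points from the 7 libraries without preHD-STR 2, and filled points have an adjusted p under 0.05. In striatum the red points of most genes lie to the right of the grey ones, with a median of 0.86 against -0.58, while Gpr17 lies below 0 in both.

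In cortex the preHD libraries lay close together. With all 8 libraries none of the 33 genes passed in cortex by edgeR or DESeq2, against 0.591% of 14392 genes by edgeR, and 1 had an unadjusted p under 0.05. The median log2 change was 0.06. Without replicate 2 of preHD striatum, which is no cortical library but enters the shared estimate of the spread, 3 genes passed, against 7.98% of 15009 genes, with 2.01% that rose and 5.97% that fell. Myrf rose by 1.09 (SE 0.30, edgeR adjusted p = 0.0455), Ermn rose by 0.89 (SE 0.19, adjusted p = 0.0117) and Gpr17 fell by 1.13 (SE 0.26, adjusted p = 0.0140). By values alone, 9 genes were higher in both postHD than in both preHD cortical libraries, and 7 were lower, against 29% and 30.5% of the 10777 genes. In striatum 0 were higher and 1, Gpr17, was lower, against 17.8% and 19.8%. The 9 included Mbp, Bcas1, Trf and Plekhb1, and the 7 included Opalin, Mag, Ugt8a and Olig1.

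Whether striatum and cortex changed differently after onset was tested by the difference of both changes. None of the 33 genes passed, with all 8 libraries or without replicate 2 of preHD striatum, against 0% and 1.02% of all genes tested. At an unadjusted p under 0.05 there were 0 and 10 of the 33, by edgeR, and DESeq2 called 0 with all libraries. Leaving out replicate 1 of preHD striatum in its place gave 6 genes with a lower striatal change, against 0.645% of all genes.

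The comparison of HD with WT mice asked whether the genotype was seen in these genes at each age. With region as a term and all 12 libraries in 1 fit, no gene of the 33 passed at the post-symptomatic age by edgeR or DESeq2, against 7.36% of 14706 genes by edgeR. None passed at the pre-symptomatic age either, against 2.1% of genes. At an unadjusted p under 0.05 there were 2 and 1 of the 33. Once replicate 2 of preHD striatum was left out, Gpr17 was lower in HD than in WT at the post-symptomatic age (log2 difference -0.85, SE 0.21, edgeR adjusted p = 0.0197), against 12.5% of genes called and 7.39% called lower. At the pre-symptomatic age none passed, against 3.04%. The median log2 difference of the 33 genes at the pre-symptomatic age turned from 0.31 to -0.43 with this omission, and at the post-symptomatic age it was 0.04 and 0.15. Leaving out the WT library of striatum also turned the sign. Without the postWT library of striatum the post-symptomatic median was -0.47, and without that of cortex it was 0.71. For the pre-symptomatic age it was -0.15 without the preWT library of striatum and 1.01 without that of cortex.

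The change with age also did not differ between the genotypes beyond the spread for any of the 33 genes, with all libraries or without replicate 2 of preHD striatum, against 0.116% and 1.44% of all genes called. In both fits, 1 of the 33 had an unadjusted p under 0.05, and DESeq2 called none with all libraries.

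The pooled fit joins regions whose values differed. In cortex most genes of mature cells were lower in HD. At the pre-symptomatic age, both HD libraries lay below the WT library for 23 of 33 genes and above it for 6, against 42.4% and 37.2% of the 10777 genes of at least 5 CPM. At the post-symptomatic age they lay below it for 25 genes and above it for 4, against 41.3% and 37.6%. The median log2 ratio to WT was -0.61 and -0.43, against -0.03 and -0.01 over those genes. Among the 14 myelin and membrane proteins, 13 lay below WT at the earlier age, with Nfasc as the exception, and 12 at the later age, with Nfasc and Gjc3 as the exceptions. The precursor genes lay on the other side, with 3 of 3 above WT at the earlier and 2 of 3 at the later age.

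Examples show the size of the cortical difference. Cldn11, a claudin of the myelin sheath, was at 139.7 CPM in preWT and 63.8 and 82.5 CPM in preHD cortex. Fa2h, which makes the hydroxylated fatty acids of myelin lipids, was at 20.03 CPM in preWT and 9.20 and 8.16 CPM in preHD. At the later age it was at 19.3 CPM in postWT and 8.47 and 11.6 CPM in postHD cortex. Ugt8a, the enzyme that makes galactosylceramide, was at 37.6 CPM in preWT, 17.98 and 30.4 CPM in preHD, 27.1 CPM in postWT and 13.998 and 15.5 CPM in postHD. Each of these genes kept its HD libraries below the WT library of the same age. Nfasc was at 213 CPM in preWT, 302 and 292 CPM in preHD, 188 CPM in postWT and 214 CPM in both postHD libraries.

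Since each cortical WT group is 1 library, this difference was tested only in a fit of 8 group means, in which a single WT library is assumed to vary like the HD replicates. That fit was chosen after the values had been seen. With all 12 libraries, none of the 33 genes passed in cortex at either age by edgeR, against 0.111% of 15337 genes after and 0% before onset, and 1 and 0 had an unadjusted p under 0.05. Leaving out replicate 2 of preHD striatum gave 3 that were lower in postHD cortex, against 5.81% of 15262 genes called and 4.08% called lower. Opalin was lower by a log2 difference of -1.08 (SE 0.29, edgeR adjusted p = 0.0443), Gpr37 by -0.94 (SE 0.25, adjusted p = 0.0367) and Qdpr, an enzyme of tetrahydrobiopterin recycling, by -0.83 (SE 0.20, adjusted p = 0.0237). The levels of Gpr37 were 45.2 CPM in postWT and 24.6 and 22.8 CPM in postHD cortex, and those of Qdpr were 268 CPM and 172 and 132 CPM. At the pre-symptomatic age none passed in cortex without that library, against 1.07% of genes, and 14 of 33 had an unadjusted p under 0.05.

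In striatum the order was the reverse at the later age. Both postHD libraries lay above the WT library for 20 of 33 genes and below it for 2, against 37.7% and 40.5% of the 10777 genes. The 2 were Gpr17 and Fa2h, and the median log2 ratio over the 33 genes was 0.70. The size depended on the replicate, with a median of 0.19 for replicate 1 and 0.98 for replicate 2. At the earlier age, 12 genes had both HD libraries above WT and 1 had both below, against 30.3% and 35.4% of genes. The other 20 had them on opposite sides, with medians of -0.22 for replicate 1 and 2.05 for replicate 2. In the fit of 8 group means without replicate 2 of preHD striatum, 3 genes passed in postHD striatum, against 9.63% of genes, with 3.45% higher and 6.18% lower. None passed in preHD striatum, against 2.1%. Ermn was higher by 1.10 (SE 0.24, edgeR adjusted p = 0.00854), Nfasc was higher by 1.11 (SE 0.21, adjusted p = 0.00344) and Gpr17 was lower by a log2 difference of -1.08 (SE 0.30, adjusted p = 0.0323). With all 12 libraries none passed in striatum at either age, against 0.724% after and 0.228% before onset, and 1 and 3 of 33 had an unadjusted p under 0.05. The difference between both regions in the HD to WT ratio was tested in the same fits, and no gene of the 33 passed at either age, against 0% of genes with all libraries and 0.446% after and 0.236% before onset without replicate 2 of preHD striatum. After onset the median of this difference over the 33 genes was 1.14 in both fits. Before onset it was 2.04 with all libraries and 0.37 without replicate 2 of preHD striatum.

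Pairs of libraries with like Xist levels were also compared. At the post-symptomatic age these are replicate 2 of HD and WT, where the median log2 ratio of the 33 genes was -0.37 in cortex and 0.98 in striatum. At the pre-symptomatic age they are replicate 1 of HD and WT, where it was -0.69 in cortex and -0.22 in striatum. The cortical medians were below 0 at both ages in these pairs. Other cell types moved beside them in cortex. Neuronal genes summed to 6654 CPM in postWT and 4825 and 4618 CPM in postHD cortex, microglial genes to 327 CPM and 269 and 193 CPM, and astrocyte genes to 1477 CPM and 1086 and 1141 CPM. At the earlier age the neuronal sum was 6796 CPM in preWT and 8154 and 8065 CPM in preHD cortex, on the other side of WT. The part of these shifts in the CPM of oligodendrocyte genes was not tested.

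**Figure D4:**
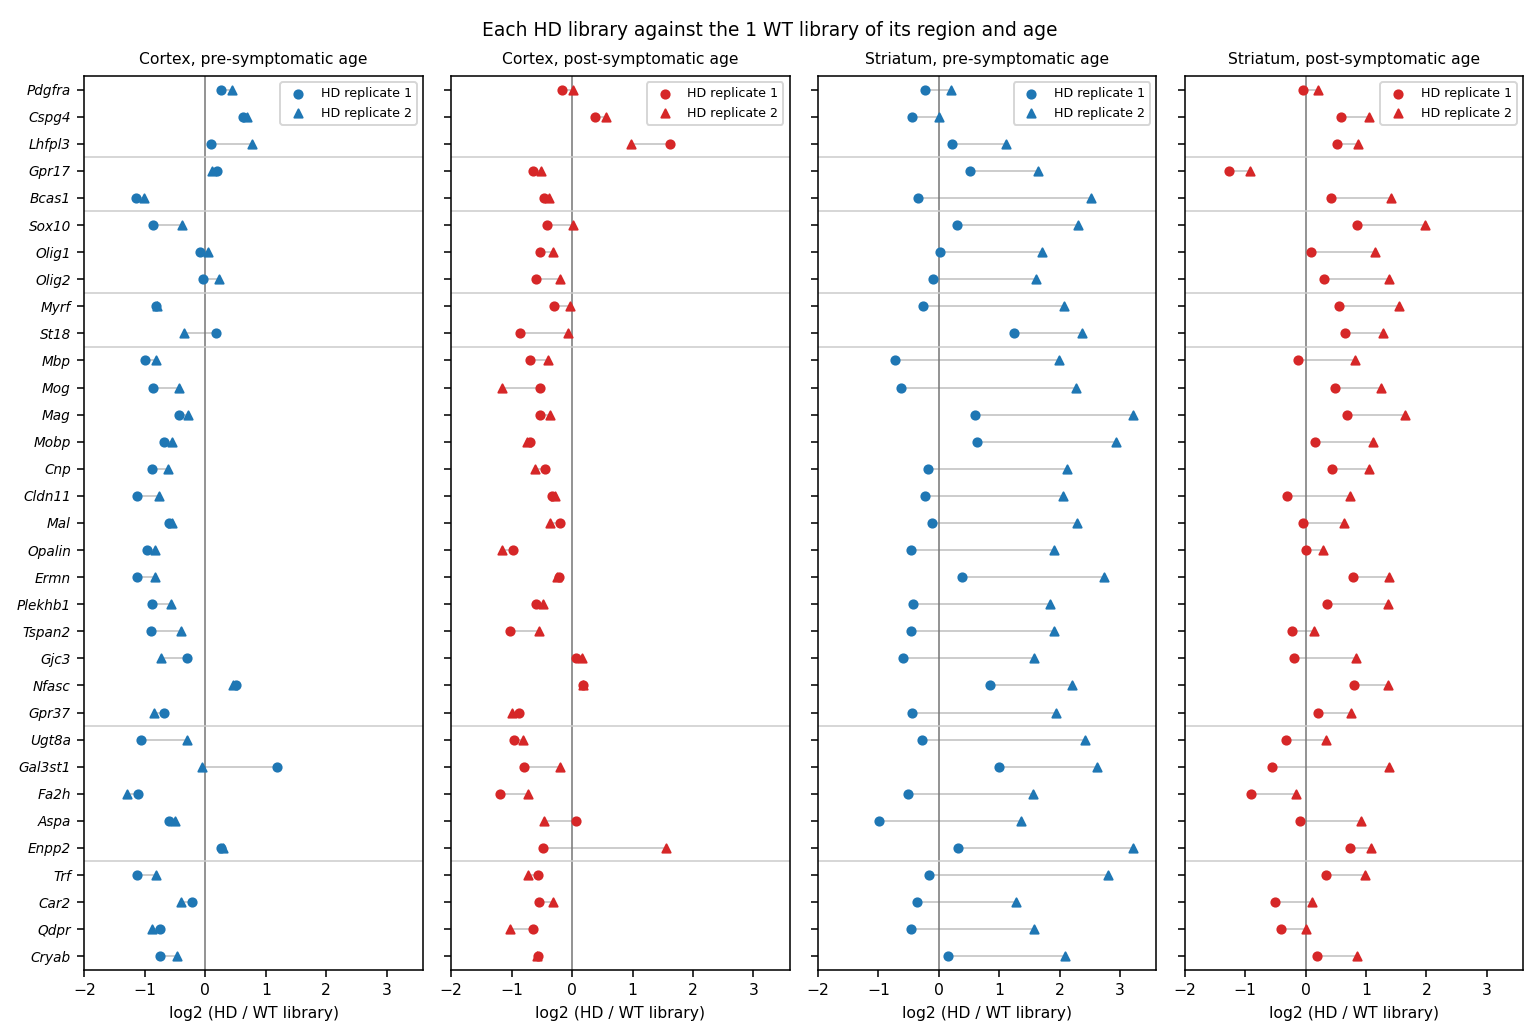
Log2 ratio of each HD library to the 1 WT library of its region and age for the 33 genes (circles are replicate 1, triangles replicate 2, grey lines join them). In both cortical panels most mature genes lie left of 0, with medians of -0.61 and -0.43, and the precursor genes in the top rows lie right of it or near it. In the striatal panels the replicates spread apart, most of all at the pre-symptomatic age.

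The balance of mature and precursor genes summed up this pattern. The 25 genes of mature cells, those other than the precursor, committed precursor and lineage factor genes, summed to 4273 CPM in preWT cortex and 2680 and 2918 CPM in preHD cortex. At the later age they summed to 4109 CPM in postWT and 2795 and 3518 CPM in postHD cortex. The highest of these HD values, in replicate 2 of postHD cortex, included 656 CPM of Enpp2 (autotaxin), which was at 160.0 CPM in replicate 1 and 225 CPM in WT. That library also held 2978 CPM of Ttr, the transthyretin of the choroid plexus, against 67.0 CPM in replicate 1. Without Enpp2 the sums were 3884 CPM in postWT and 2635 and 2862 CPM in postHD cortex. The 3 precursor genes summed to 20.9 and 22.4 CPM in the cortical WT libraries and to between 26.3 and 31.0 CPM in the 4 cortical HD libraries. The ratio of mature to precursor sums was 205 and 183 in the cortical WT libraries and between 94.1 and 126 in the cortical HD libraries, with no overlap. In striatum the ratio was 108 in preWT, 97.2 and 363 in preHD, 170 in postWT and 147 and 204 in postHD, and the genotypes overlapped. The precursor sum is low, with 30 counts of Lhfpl3 in postWT cortex. A separate list of 17 precursor and committed precursor genes did not repeat the higher HD sum after onset. Its sum was 433 CPM in postWT and 406 and 388 CPM in postHD cortex, with 7 genes below WT and 8 above. Before onset it was 508 CPM in preWT and 569 and 614 CPM in preHD. Of 30 further mature genes, 24 before and 19 after onset lay below WT in both cortical HD libraries. Their sums lay on both sides of WT.

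**Figure D5:**
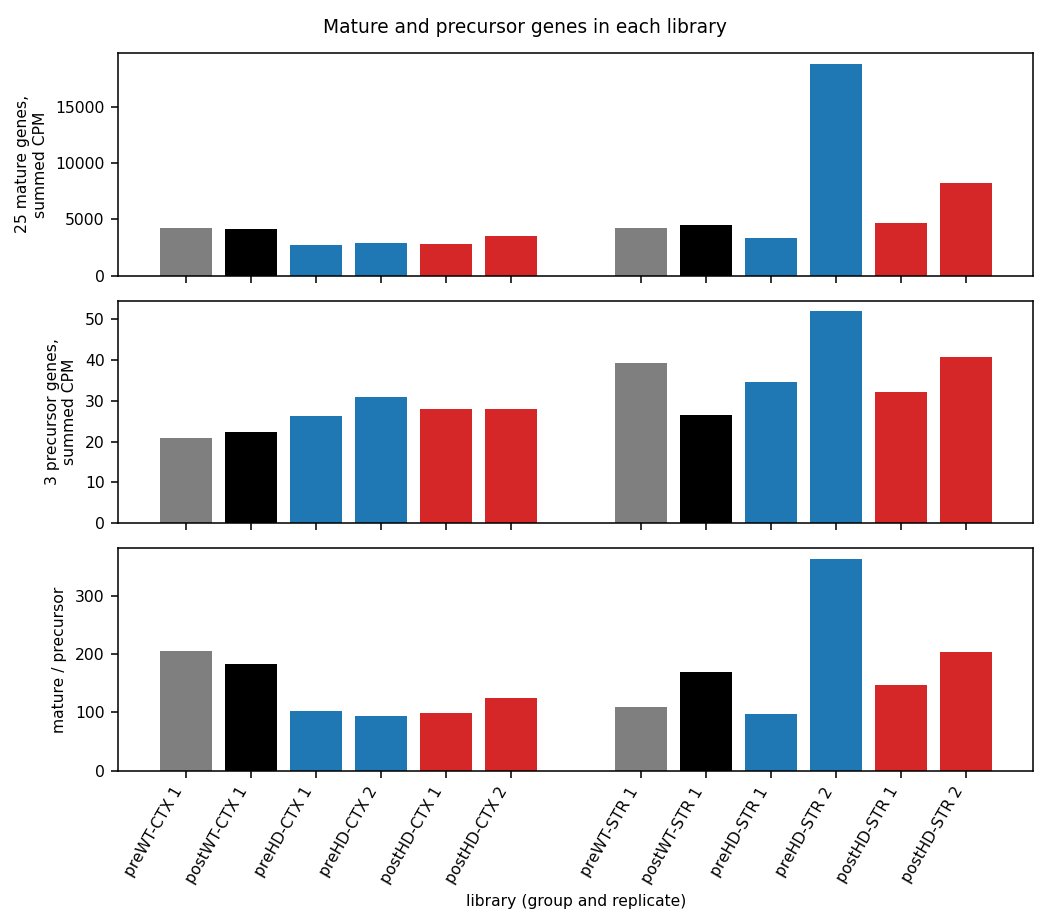
Summed CPM of the 25 mature genes (top), summed CPM of the 3 precursor genes (middle) and the ratio of both (bottom) in each library, cortex on the left and striatum on the right, with axes from 0 (grey preWT, black postWT, blue preHD, red postHD). In cortex every HD bar of the bottom panel lies below both WT bars, and in striatum preHD-STR 2 reaches 363.

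Striatum and cortex were compared over all 12 libraries. With all libraries, 3 of the 33 genes were higher in striatum, against 8.51% of 14706 genes, and none was lower, while 20.6% of genes passed in either direction. Lhfpl3 was higher by 1.10 on the log2 scale (SE 0.23, edgeR adjusted p = 0.00542), St18 by 1.46 (SE 0.36, adjusted p = 0.0134) and Opalin by 1.38 (SE 0.42, adjusted p = 0.0449). Lhfpl3 and St18 passed in each of 19 alternatives, and Opalin in 9 of them, with adjusted p between 0.00107 and 0.104. The median of the 33 genes was 1.12. DESeq2 called 17 of the 33 higher, against 12.4% of all genes.

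Without replicate 2 of preHD striatum the median was 0.60, and 11 genes were higher in striatum, against 11.1% of 14620 genes that were higher and 25.4% called in either direction. They comprised Lhfpl3, St18, 6 myelin and membrane proteins (Mbp, Cldn11, Mal, Opalin, Tspan2 and Gjc3), Fa2h, Aspa and Trf. Mal, a raft protein of myelin, had the smallest adjusted p of these, with a log2 difference of 0.73 (SE 0.14, edgeR adjusted p = 0.00235). Mbp was higher by 0.68 (SE 0.21, adjusted p = 0.0386). Aspa, the enzyme that frees acetate from N-acetylaspartate, was higher by 0.75 (SE 0.22, adjusted p = 0.0246).

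The regional difference was described for each group by its libraries, and whether it differed between genotypes was tested only by the difference given above. In postHD, both striatal libraries exceeded both cortical libraries for 26 of 33 genes, against 22.4% of the 10777 genes. In preHD they did so for 24 genes, against 21.6%, and replicate 1 of striatum alone exceeded both cortical libraries for 24, against 41%. In WT, the striatal library exceeded the cortical one for 25 of 33 genes at the later age, against 49%, with a median log2 ratio of 0.15. At the earlier age it did so for 16 of 33, against 48.1%, with a median of -0.02. All 3 precursor genes were higher in the striatal than in the cortical preWT library.

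Other genes of the lineage were followed as 3 lists that share no gene with the 33. Of 30 mature oligodendrocyte genes, 2 fell from before to after onset over both regions with all 8 HD libraries and none rose, against 4.53% of all genes that fell. Klk6, a protease of oligodendrocytes, fell by 2.45 on the log2 scale (SE 0.60, edgeR adjusted p = 0.0440), and Gamt, which makes creatine, fell by 1.44 (SE 0.29, adjusted p = 0.0204). Klk6 was at 35.6 CPM in replicate 2 of preHD striatum and between 0.266 and 7.79 CPM elsewhere. In its absence, 6 of the 30 rose and 1 fell, against 3.17% and 7.45% of all genes. Gamt still fell, by 1.09 (SE 0.23, adjusted p = 0.0103), and Klk6 no longer passed. The largest rise was that of Anln, an actin-binding scaffold protein of myelin septins, by 2.84 (SE 0.29, adjusted p = 0.000178).

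Anln was at 5.09 CPM in preWT cortex, 5.54 and 2.83 CPM in preHD, 9.13 CPM in postWT and 30.4 and 29.2 CPM in postHD. In striatum it was at 8.34 CPM in preWT, 8.84 and 43.0 CPM in preHD, 10.7 CPM in postWT and 43.6 and 84.0 CPM in postHD. All 4 postHD libraries lay above every WT library and above every preHD library but replicate 2 of striatum. Without that library, Anln was also higher in HD than in WT at the post-symptomatic age by 2.12 (SE 0.33, edgeR adjusted p = 0.00142), and its change with age was larger in HD than in WT by 2.23 (SE 0.47, adjusted p = 0.0356). With all libraries neither of the 2 passed.

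Of 17 further precursor and committed precursor genes, 3 fell with onset over both regions with all 8 libraries and none rose, against 4.53% of all genes that fell. Ptprz1, a receptor phosphatase of precursors and astrocytes, fell by 0.80 (SE 0.11, edgeR adjusted p = 0.00501), the proteoglycan Bcan by 0.71 (SE 0.11, adjusted p = 0.00936) and Mmp15 by 1.60 (SE 0.38, adjusted p = 0.0355). Astrocyte genes summed to 1588 and 1646 CPM in preHD and 1086 and 1141 CPM in postHD cortex. In striatum they summed to 1394 and 1770 CPM in preHD and 1092 and 1336 CPM in postHD. The part of astrocytes in the falls of these 3 genes was not tested. Without replicate 2 of preHD striatum, Ptprz1 and Bcan passed and Mmp15 did not. Against WT, 2.1% of all genes were called at the pre-symptomatic and 7.36% at the post-symptomatic age. Ptprz1 was higher in HD at the pre-symptomatic age by 1.28 (SE 0.14, adjusted p = 0.00281) and at the post-symptomatic age by 0.67 (SE 0.14, adjusted p = 0.0139). Its cortical levels were 39.6 CPM in preWT, 87.8 and 96.1 CPM in preHD, 35.5 CPM in postWT and 56.9 and 48.2 CPM in postHD. In striatum Ptprz1 was at 44.8 CPM in preWT, 113 and 113 CPM in preHD, 37.6 CPM in postWT and 69.2 and 60.8 CPM in postHD. Every HD library exceeded every WT library. Fyn, a kinase that acts early in myelination and is also found in neurons, was higher in HD by 0.75 at the pre-symptomatic age (SE 0.16, adjusted p = 0.0349). Bcan was lower in HD at the post-symptomatic age by a log2 difference of -0.58 (SE 0.15, adjusted p = 0.0387), as was Gamt by -1.41 (SE 0.33, adjusted p = 0.0249). Without replicate 2 of preHD striatum these 5 differences also passed, at 1.27 and 0.67 for Ptprz1, 0.62 for Fyn, -0.58 for Bcan and -1.43 for Gamt, with edgeR adjusted p between 0.00139 and 0.0250.

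The 12 enzymes of sphingolipids and galactolipids outside the 33 genes had no calls in 3 comparisons. None passed with onset over both regions or against WT at either age with all libraries. With replicate 2 of preHD striatum left out, 1 rose with onset over both regions. This was Cers2, the synthase of very long chain ceramides, by 0.60 (SE 0.17, edgeR adjusted p = 0.0362). Against WT, 1 of the 12 (Arsa, which degrades sulfatide) was then higher in HD at the post-symptomatic age, by 1.20 (edgeR adjusted p = 0.0487), and none passed at the pre-symptomatic age.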

How the data were processed

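Total RNA of striatum and cortex was made into 3′-end libraries (QuantSeq), and the authors deposited 1 table of raw counts per gene for each of 12 libraries. Their processing notes name mm10, Bowtie2 and bedtools. The counting rule is not given in the sources used here. Each table held 23282 rows, of which 44 repeated a symbol, and 4306 had no count in any library. CPM was computed here from the deposited counts and TMM-scaled library sizes. Genes were filtered with filterByExpr (minimum count 10) and tested with the quasi-likelihood test of edgeR 4.0.16 in R 4.3.3, with Benjamini-Hochberg adjustment over all genes tested and a threshold of 0.05. Stage and stage by region were fitted over the 8 HD libraries, and genotype and region over all 12. DESeq2 1.42.0 and limma 3.58.1 (voom) served as alternatives. The scripts were tested on simulated data. Gene positions came from GENCODE (GRCm38) and promoters from RefSeq (GRCm38.p6). The 33 genes, the marker lists and the comparisons were chosen with earlier results of these data known. Every member was eligible to be named. From the 3 further lists, at most 3 genes a list and comparison were named, those past the threshold with a mean of at least 5 CPM and the largest changes. Slc17a6, Prkcd and Ttr were named as markers after their values were seen. Fits without replicate 2 of preHD striatum were planned as left-out libraries, but they are given throughout because the 33 genes are high in that library. The fit of 8 group means was added after the data were seen. 1 marker list is not reported here.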

Additional observations from a re-analysis of the deposited data

How the results depend on the processing

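The count of the 33 genes past the threshold moved with the library left out. The share of all genes called moved too, and it is not given beside the ranges that follow. Over the left-out libraries it ran from 0 to 4 for the stage comparison over both regions, from 0 to 20 in striatum, from 0 to 3 in cortex and from 0 to 6 for the difference of striatum and cortex. It ran from 0 to 1 for HD against WT at the post-symptomatic age, stayed at 0 at the pre-symptomatic age and for the change with age, and ran from 2 to 11 for striatum against cortex. Without replicate 1 of preHD striatum, the median log2 change of the 33 genes was -0.47 over both regions. It was -1.29 in striatum, 0.06 in cortex and 1.24 for striatum against cortex. Single genes turned sign with the preHD striatal library left out. Without replicate 2 and then without replicate 1, the log2 change in striatum was 1.90 and -0.96 for Bcas1, 0.997 and -1.29 for Cnp, 1.51 and -0.82 for Ermn, 1.28 and -1.09 for Gpr37, 1.33 and -1.63 for Trf, and 1.06 and -0.88 for Cryab. For Trf over both regions it was 0.89 and -0.40. With all libraries, the striatal count went from 0 to 1 with DESeq2 and to 1 with no filter on low counts. For striatum against cortex it went from 3 to 17 with DESeq2, against 8.51% and 12.4% of all genes called higher. It went to 6 with upper-quartile scaling and to 6 with a minimum of 1 CPM in every library. The share of all genes is not given for these settings. The fit of 8 group means without replicate 2 of preHD striatum gave, after onset, 3 genes in the striatal contrast and 3 in the cortical one, where the fit over both regions gave 1 without that library and 0 with all 12. The cause of these moves was not tested.

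The labels do not say that a replicate number marks a pair. Over 10777 genes, the deviations of same-numbered striatal and cortical libraries correlated at 0.275 in postHD and 0.140 in preHD. Between postHD and preHD groups, whose libraries differ in age and so cannot share a mouse, the values ran from 0.0632 to 0.351. With the replicate number as a block, 5 of the 33 genes passed for striatum against cortex, and 5 with voom and a random block that takes both regions of a genotype, age and number as 1 mouse, which the labels do not state, against 3 without a block. Neither block changed another count of the 33 genes by more than 1.5 times. The share of all genes called with a block is not given. With the number as a term, the median log2 difference of HD from WT went from 0.31 to -0.25 at the pre-symptomatic age and from 0.04 to -0.37 at the post-symptomatic age, with 12 and 4 of the 33 above 0 in place of 32 and 17. Every WT library is numbered 1, so this term in effect sets WT against the HD libraries numbered 1. At the post-symptomatic age those HD libraries held few Xist counts and the WT libraries held many. At the lowest levels, depth limits the values: Gal3st1 rested on as few as 11 counts.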
